A study of Mus musculus with 6 samples.

Results

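The 9 genes described here encode transcription factors of the stromal cells of bone marrow called CXCL12-abundant reticular cells, or CAR cells. They are the early B cell factor genes Ebf1, Ebf2 and Ebf3, the forkhead gene Foxc1, the paired-related homeobox gene Prrx1, the basic helix-loop-helix genes Twist1 and Twist2, the Snail family gene Snai2 and the orphan nuclear receptor gene Nr2f2. They were taken by gene symbol from a table of 17128 genes, all 9 had an entry, and all 9 passed the filter on low counts that left 13926 genes for testing. The 3 CXCL12-deficient libraries were made from GFP+ tdTomato+ cells of femurs of Cxcl12(GFP/fl); Col2a1-cre; R26R(tdTomato/+) mice at postnatal day 21. The 3 Control libraries were made from GFP+ cells of Cxcl12(GFP/fl); R26R(tdTomato/+) mice of the same age. Both groups thus carried GFP in place of 1 Cxcl12 allele and a floxed other allele, and both carried the tdTomato reporter. The cre transgene is driven by Col2a1, a gene of cartilage cells and of their precursors, so the CXCL12-deficient sort took cells with a history of Col2a1-cre activity, while the Control sort did not select for lineage. About 20000 cells went into each library. Growth plates had been removed and the bone digested with collagenase.

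CAR cells are mesenchymal cells with long processes that make CXCL12, stem cell factor and interleukin 7 and so support blood stem cells and early B cells. In mice, Foxc1 is needed to form CAR cells, and Ebf1 and Ebf3 keep them from turning into bone-forming cells, so that the marrow cavity is kept free of bone. Prrx1, Twist1, Twist2 and Snai2 are older marks of mesenchyme, known from limb bud, skull and neural crest.

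Libraries held between 20133299 and 28009257 counts. Expression is given as CPM, counts scaled by TMM factors to a common library total. Cxcl12, summed over its 4 exon entries, had 1423, 1280 and 1163 CPM in CXCL12-deficient libraries. Control libraries had 3876, 3673 and 3694 CPM (log2 fold change -1.54 ± 0.17 SE, adjusted p = 0.0053, edgeR). The exon 4 entry was the largest part of this sum. The exon 2 entry had 34.6, 22.6 and 21.8 CPM in CXCL12-deficient and 375, 413 and 366 CPM in Control libraries. The exon 1 entry had 91.7, 104 and 103 CPM in CXCL12-deficient and 166, 187 and 151 CPM in Control libraries. Defining stromal genes were abundant in both groups: the leptin receptor gene Lepr averaged 1076 CPM in CXCL12-deficient and 652 CPM in Control libraries (adjusted p = 0.0748, edgeR; named as the defining marker of these cells, with its values known). Neutrophil RNA was also present, and more so in controls: 15 neutrophil genes summed to between 3004 and 7512 CPM in CXCL12-deficient libraries and between 15965 and 21850 CPM in Control libraries. In these bulk libraries fewer cells of a type and less RNA per cell cannot be told apart, and the sort gate, the cre transgene and the loss of Cxcl12 changed together. The labels do not say that libraries came from separate animals, and the spread that the p-values measure may be technical.

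Of the 9 genes, Ebf3 and Twist2 rose in CXCL12-deficient libraries, and the other 7 did not pass the test (adjusted p below 0.05, edgeR's quasi-likelihood test with Benjamini-Hochberg adjustment over all genes). Of all tested genes 4.57% were called in either direction and 0.639% were called higher. Ebf3 was 1.64-fold higher and Twist2 2.06-fold higher. All 9 log2 fold changes were positive, with a median of 0.39 against 0.028 for all tested genes, of which 52.6% were positive. When libraries were scaled to 25 stromal genes instead, 0 of 9 were called (Ebf3 adjusted p = 0.509, Twist2 adjusted p = 0.271, edgeR). In that scaling 7 of 9 were positive, with Prrx1 at -0.042 and Nr2f2 at -0.035. These 25 genes themselves leaned higher in CXCL12-deficient libraries. Under TMM 23 of them were positive and 2 negative, their median was 0.22, and 1 was called higher. They include Lepr and other CAR cell genes, and osteoblast genes such as Sparc, at 2974 to 6612 CPM among Control libraries. With the stromal scaling the median log2 fold change of all tested genes was -0.21. The SE went from 0.14 to 0.28 for Ebf3 and from 0.23 to 0.35 for Twist2. Whether stromal genes share a rise was not tested. With 1 library left out, between 0 and 1 of the 9 were called. The groups did not overlap at 3 of the 9 genes, Ebf1, Ebf3 and Twist2, each with every CXCL12-deficient library above every Control library; 11.7% of all tested genes showed this.

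**Figure D1:**
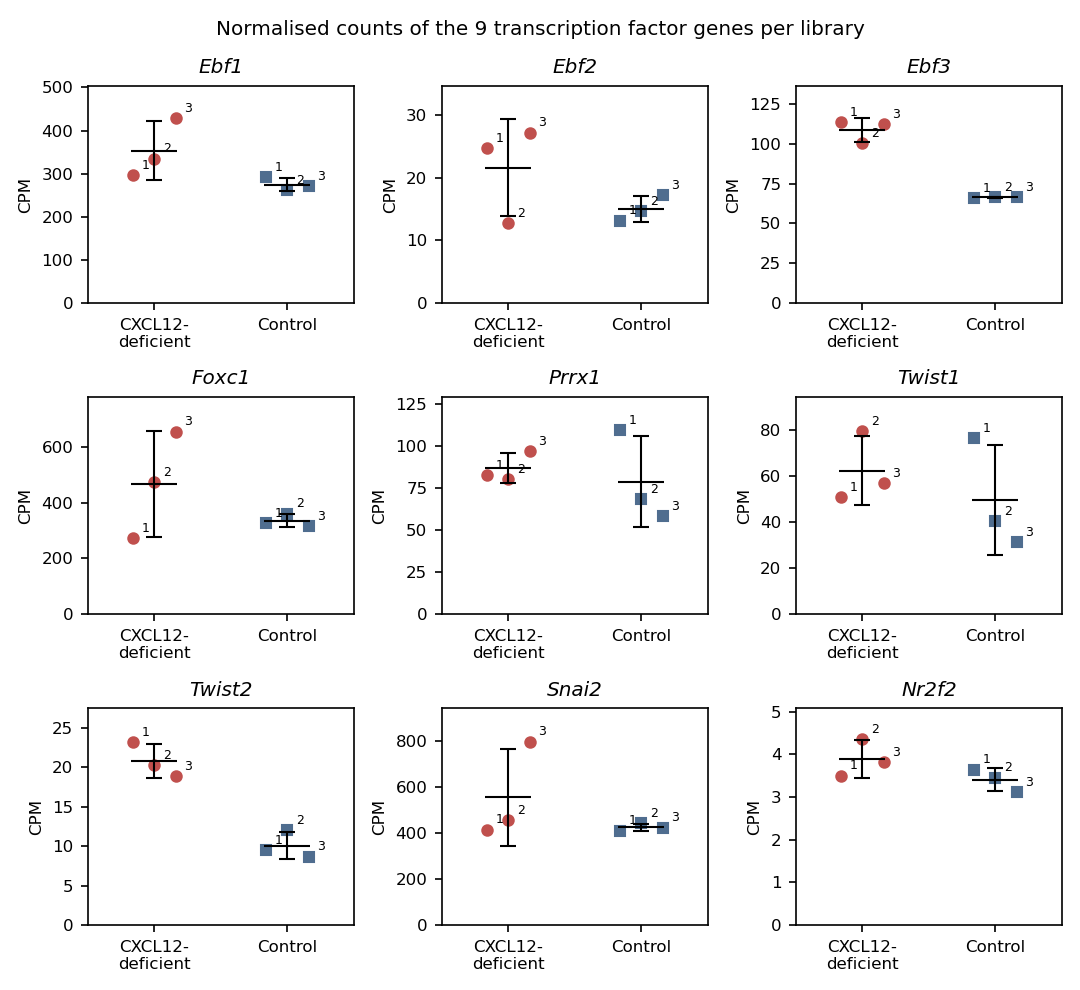
Normalised counts (CPM, linear axes from 0) of the 9 genes, with CXCL12-deficient libraries in red circles and Control libraries in blue squares. Numbers mark replicates, and bars show the mean and SD (n = 3). Ebf3 is between 100.4 and 114 CPM in CXCL12-deficient libraries and at 66.2 to 66.5 CPM in Control libraries, and Twist2 is likewise apart, while Foxc1, Snai2, Prrx1 and Twist1 overlap.

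Ebf3, the EBF gene whose loss in mouse marrow stroma is known to fill the marrow with bone, separated the groups most tightly. It had 114, 100.4 and 112 CPM in CXCL12-deficient libraries, against 66.2, 66.5 and 66.5 CPM in Control libraries. The Control libraries were nearly equal and all lay below the lowest CXCL12-deficient library. The difference was a log2 fold change of 0.71 ± 0.14 (SE), with a 95% interval of 0.40 to 1.02 and adjusted p = 0.0233 (edgeR). Ebf3 kept a log2 fold change between 0.68 and 0.77 in the 6 refits that each dropped 1 library. Its call was kept only without CXCL12-deficient replicate 2 (adjusted p = 0.0370, edgeR). The adjusted p was 0.0538 and 0.0593 without CXCL12-deficient replicates 1 and 3, and 0.0582, 0.111 and 0.117 without Control replicates 1, 2 and 3. Scaled to stromal genes, Ebf3 had a log2 fold change of 0.48 ± 0.28 (adjusted p = 0.509, edgeR). The log2 ratio of its counts to the summed counts of the 25 stromal genes was -8.67 ± 0.28 in CXCL12-deficient and -9.07 ± 0.44 in Control libraries (SD, n = 3 each; exact two-sided permutation p = 0.3, adjusted p = 0.9 over 12 ratios).

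Ebf3 lies on the minus strand of chromosome 7, from 137193673 to 137314445 of GRCm38 (GENCODE M21), and 355 of its exonic bases are shared with the antisense gene Gm45278. Its promoter window (RefSeq, GRCm38.p6, 250 bases before to 50 after the gene's start) is shown because Ebf3 and Twist2 were the only 2 of the 9 genes that rose and, of the 8 windows found for 7 of the 9 genes, only theirs held the letters CCCNNGGG, the core of the palindrome that EBF proteins bind. Capitals mark that match. The search covered both strands, and CCCNNGGG reads the same on each. It occurs in 13.7% of the 32851 mouse promoter windows. The Ebf3 window was 77.0% G or C, against a median of 52.7% over all windows, and the match lies in a run of such bases. No window was found for Ebf2 and Snai2, so these were not searched. The windows were picked with the calls known, and other motifs were searched as well, so the matches are no support for the calls. The forkhead letters GTAAACA were in none of the 8 windows and in 3.65% of all windows. A match is a description of the letters and not of binding, which was not tested.
Ebf3, chr7:137314396-137314695, minus strand: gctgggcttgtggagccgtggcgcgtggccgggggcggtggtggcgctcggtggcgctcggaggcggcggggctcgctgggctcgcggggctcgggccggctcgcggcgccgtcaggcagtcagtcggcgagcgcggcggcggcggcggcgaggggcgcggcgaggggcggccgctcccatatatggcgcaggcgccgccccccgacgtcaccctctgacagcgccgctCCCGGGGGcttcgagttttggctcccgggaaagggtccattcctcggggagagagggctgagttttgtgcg

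Ebf1, the founding gene of the family and also a factor that B cell development depends on, was the most abundant of the EBF genes. It had 296, 335 and 429 CPM in CXCL12-deficient libraries, against 292, 261 and 271 CPM in Control libraries. The groups did not overlap, but CXCL12-deficient replicate 1 exceeded the highest Control library only narrowly. Ebf1 had a log2 fold change of 0.36 ± 0.17 (95% interval -0.02 to 0.75; adjusted p = 0.292, edgeR). Of 16 markers of the B lineage, which also uses Ebf1, all 16 had negative log2 fold changes and 5 fell (3.94% of all tested genes fell), among them Rag1, of antigen receptor gene assembly, Il7r, the interleukin 7 receptor, and Cd79a, of the B cell receptor. Their summed level was 322, 257 and 116 CPM in CXCL12-deficient libraries and 444, 862 and 1269 CPM in Control libraries. The number of the 16 that fell was 1, 1 and 2 without CXCL12-deficient replicates 1, 2 and 3, and 11, 0 and 0 without Control replicates 1, 2 and 3. Over all tested genes it was 456, 412 and 410, then 530, 154 and 74, in the same refits. DESeq2 called 14 and limma-voom 5 of the 16. Over all 13926 tested genes, DESeq2 called 989 lower and 302 higher, and limma-voom 540 lower and 84 higher. The part of B lineage RNA in the Ebf1 values was not tested.

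Ebf2, known from immature osteoblast-lineage and brown fat precursor cells, was the least abundant of these EBF genes. It had 24.7, 12.7 and 27.2 CPM in CXCL12-deficient libraries, against 13.1, 14.6 and 17.2 CPM in Control libraries. CXCL12-deficient replicate 2 was below all Control libraries and the other two CXCL12-deficient libraries were above them. Its log2 fold change of 0.52 ± 0.30 did not pass the test (95% interval -0.16 to 1.20; adjusted p = 0.398, edgeR), and it was 0.79 without CXCL12-deficient replicate 2. The fourth member of the family, Ebf4, averaged 2.13 CPM in CXCL12-deficient and 1.77 CPM in Control libraries. Within a library, Ebf1 had 2.60, 3.33 and 3.82 times the counts of Ebf3 in CXCL12-deficient libraries, against 4.41, 3.93 and 4.08 times in Control libraries, a ratio that does not depend on the scaling. The groups did not overlap (exact two-sided permutation p = 0.1, the smallest that 3 against 3 libraries allow; adjusted p = 0.6 over 12 ratios). No stretch of 50 bases in the transcripts of Ebf1, Ebf2 or Ebf3 occurred in another of these genes or their paralogs.

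Foxc1, the forkhead gene needed for CAR cells to form, varied most among CXCL12-deficient libraries. It had 272, 475 and 655 CPM there, against 328, 361 and 317 CPM in Control libraries. CXCL12-deficient replicate 1 was below, and replicates 2 and 3 above, every Control library. Foxc1 thus had a log2 fold change of 0.48 ± 0.28 (95% interval -0.15 to 1.10; adjusted p = 0.400, edgeR). Dropping CXCL12-deficient replicate 1 gave 0.75 (adjusted p = 0.0717, edgeR), and dropping CXCL12-deficient replicate 3 gave 0.16 (adjusted p = 0.808, edgeR). Its close relative Foxc2 averaged 61.3 CPM in CXCL12-deficient and 56.6 CPM in Control libraries, and was likewise lowest in CXCL12-deficient replicate 1, at 35.4 CPM.

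Snai2, a repressor that binds E-boxes and a mark of mesenchymal state, was the most abundant of the 9 genes. It had 416, 456 and 800 CPM in CXCL12-deficient libraries, against 412, 443 and 425 CPM in Control libraries. Only CXCL12-deficient replicate 3 stood clearly above the rest. Its log2 fold change of 0.39 ± 0.24 did not pass the test (95% interval -0.16 to 0.93; adjusted p = 0.449, edgeR), and it was 0.03 without that library. The same library had the highest Foxc1 and Ebf1 and the lowest sums of neutrophil (3004 CPM), erythroid (1535 CPM) and B lineage (116 CPM) genes; the part of these in the result was not tested. The paralog Snai1 had 57.8, 55.0 and 28.2 CPM in CXCL12-deficient libraries, against 33.8, 22.3 and 15.7 CPM in Control libraries (log2 fold change 0.97 ± 0.34, adjusted p = 0.159, edgeR). Its level was lowest among CXCL12-deficient libraries where that of Snai2 was highest.

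**Figure D2:**
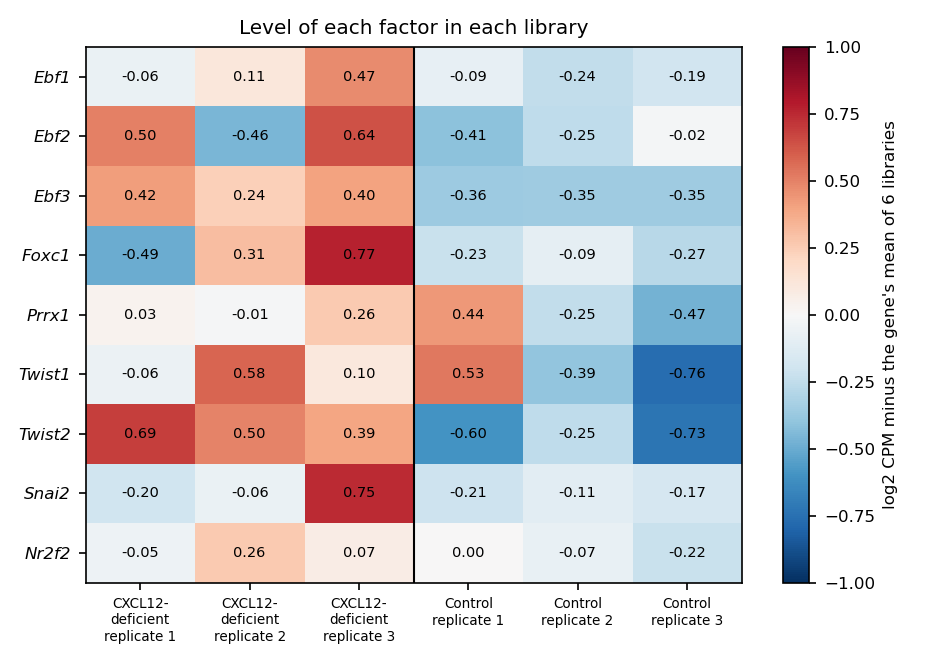
Level of each gene (rows) in each library (columns), as log2 CPM minus the gene's mean of 6 libraries, CXCL12-deficient libraries to the left of the line and Control libraries to the right. Red is above and blue below the mean. Ebf3 and Twist2 are red in all CXCL12-deficient and blue in all Control libraries, Foxc1 and Snai2 are highest in CXCL12-deficient replicate 3, and Prrx1 and Twist1 are high in Control replicate 1.

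Twist2 showed the largest difference of the 9 genes, and its paralog Twist1 overlapped between groups. Both are basic helix-loop-helix factors that pair with E proteins and hold back osteoblast maturation in mice. Twist2 had 23.2, 20.3 and 18.9 CPM in CXCL12-deficient libraries, against 9.50, 12.1 and 8.69 CPM in Control libraries. Every CXCL12-deficient library exceeded every Control library. The log2 fold change was 1.04 ± 0.23 (95% interval 0.52 to 1.57; adjusted p = 0.0403, edgeR). With 1 library left out it ran from 0.93 to 1.19, and Twist2 was called in 0 of 6 refits. The adjusted p was 0.0965, 0.0762 and 0.0664 without CXCL12-deficient replicates 1, 2 and 3, and 0.0904, 0.0864 and 0.185 without Control replicates 1, 2 and 3. Scaled to stromal genes, it had a log2 fold change of 0.82 ± 0.35 (adjusted p = 0.271, edgeR). As a log2 ratio to the summed stromal genes it was -11.06 ± 0.29 in CXCL12-deficient and -11.80 ± 0.52 in Control libraries (SD, n = 3 each; exact two-sided permutation p = 0.1, adjusted p = 0.6 over 12 ratios). The antisense gene Gm29100 shares 1477 of the 3174 exonic bases of Twist2. The strand setting of the authors' counting is not stated, and without one reads of the pair cannot be told apart.

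Twist1 had 50.9, 79.5 and 57.0 CPM in CXCL12-deficient libraries, against 76.7, 40.4 and 31.4 CPM in Control libraries. Control replicate 1 was close to the highest CXCL12-deficient library and the other two Control libraries were below all of these. Twist1 had a log2 fold change of 0.33 ± 0.32 (95% interval -0.39 to 1.06; adjusted p = 0.644, edgeR). It was 0.78 without Control replicate 1 and 0.08 without Control replicate 3. Genes of osteoblasts, in whose precursors Twist1 is also known, summed to 20810, 28194 and 20044 CPM in CXCL12-deficient libraries and to 39386, 16834 and 12471 CPM in Control libraries. The libraries highest for these genes, Control replicate 1 and CXCL12-deficient replicate 2, were also the highest for Twist1, and the part of osteoblast genes in the Twist1 values was not tested. Twist1 had 2.20, 3.91 and 3.02 times the counts of Twist2 in CXCL12-deficient libraries, against 8.08, 3.35 and 3.61 times in Control libraries (exact two-sided permutation p = 0.3; adjusted p = 0.9 over 12 ratios).

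The promoter windows of this pair are shown to compare the paralog that rose with the one that did not pass the test. Both genes lie on the plus strand of GRCm38, Twist2 at chromosome 1, 91801461 to 91848028, and Twist1 at chromosome 12, 33957671 to 33959829. Capitals again mark CCCNNGGG, present in the Twist2 window and not in the Twist1 window. The Twist2 window was 64.7% G or C, and its match runs into a stretch of G. Neither window, nor that of Ebf3, held an E-box (CANNTG, searched on both strands), the letters that Twist and Snail factors bind, which occur in 72.3% of all windows. The windows of Foxc1 and Prrx1 and the more upstream Ebf1 window also held none. The other Ebf1 window and that of Nr2f2 held 2 each. The Twist2 window held 4 copies of the GC box GGGCGG and the Twist1 window 1, with overlapping copies and both strands counted; 35.7% of all windows hold at least 1. The Twist1 window alone of the 8 held a TATA box (TATAAA, both strands; 13.6% of all windows).
Twist2, chr1:91801211-91801510, plus strand: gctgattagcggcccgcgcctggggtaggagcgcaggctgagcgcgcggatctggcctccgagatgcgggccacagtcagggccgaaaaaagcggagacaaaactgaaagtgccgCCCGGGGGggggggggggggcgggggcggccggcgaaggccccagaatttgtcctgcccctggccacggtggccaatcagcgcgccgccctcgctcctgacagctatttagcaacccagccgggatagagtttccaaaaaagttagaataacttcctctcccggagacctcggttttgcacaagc
Twist1, chr12:33957421-33957720, plus strand: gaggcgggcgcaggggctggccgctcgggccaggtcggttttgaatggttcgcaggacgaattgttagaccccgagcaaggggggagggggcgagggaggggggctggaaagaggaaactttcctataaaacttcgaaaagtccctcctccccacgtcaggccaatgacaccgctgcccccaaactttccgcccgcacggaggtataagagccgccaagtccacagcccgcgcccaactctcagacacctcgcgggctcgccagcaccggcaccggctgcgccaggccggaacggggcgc

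Prrx1, a homeobox gene of limb mesenchyme and skeletal progenitors, did not differ beyond the spread between libraries. It had 82.8, 80.4 and 97.0 CPM in CXCL12-deficient libraries, against 109.6, 68.2 and 58.5 CPM in Control libraries. Control replicate 1 was the highest of all 6 libraries, as it also was for the osteoblast sum, and Control replicate 3 the lowest for both. This gave a log2 fold change of 0.14 ± 0.23 (95% interval -0.39 to 0.67; adjusted p = 0.811, edgeR). Its paralog Prrx2 averaged 2.98 CPM in CXCL12-deficient and 4.83 CPM in Control libraries.

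Nr2f2 (COUP-TFII), a nuclear receptor of mesenchyme and the factor that sets vein identity in endothelium, was the least abundant of the 9 genes. It had 3.50, 4.36 and 3.82 CPM in CXCL12-deficient libraries, against 3.64, 3.46 and 3.12 CPM in Control libraries, from 66 to 102 counts per library. The groups overlapped, and at this depth the interval was wide (log2 fold change 0.19 ± 0.38, 95% interval -0.67 to 1.05; adjusted p = 0.840, edgeR). Of 20 endothelial genes 9 fell in the same libraries, among them the junction genes Cdh5 and Esam, and 1 rose. Of all tested genes 3.94% fell and 0.639% rose. The 1 endothelial gene that rose, Ramp2, encodes a receptor partner of adrenomedullin and was named after its values were seen. The median log2 fold change of the 20 was -1.76. Their summed level was between 209 and 251 CPM in CXCL12-deficient and between 332 and 438 CPM in Control libraries, with none of the 20 at 0 throughout a group. Eng was the largest part of this sum, at 116 CPM in CXCL12-deficient and 108 CPM in Control libraries, so the sum falls less than most of the 20. The part of the endothelial genes in the Nr2f2 values was not tested. DESeq2 called 11 and limma-voom 6 of the 20. Over all 13926 tested genes DESeq2 called 989 lower and 302 higher, and limma-voom 540 lower and 84 higher. The number of the 20 that fell was 8, 8 and 7 without CXCL12-deficient replicates 1, 2 and 3. It was 5, 3 and 3 without Control replicates 1, 2 and 3, and 9 when scaled to stromal genes. Over all tested genes the number that fell was 456, 412 and 410, then 530, 154 and 74, in the same refits, and 587 in that scaling. Of the 6 refits without a library, Ramp2 was called in those without CXCL12-deficient replicate 2 and without Control replicate 1, and it was not called when scaled to stromal genes. An overlapping noncoding gene, B130024G19Rik, shares 643 of the exonic bases of Nr2f2 on the opposite strand.

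**Figure D3:**
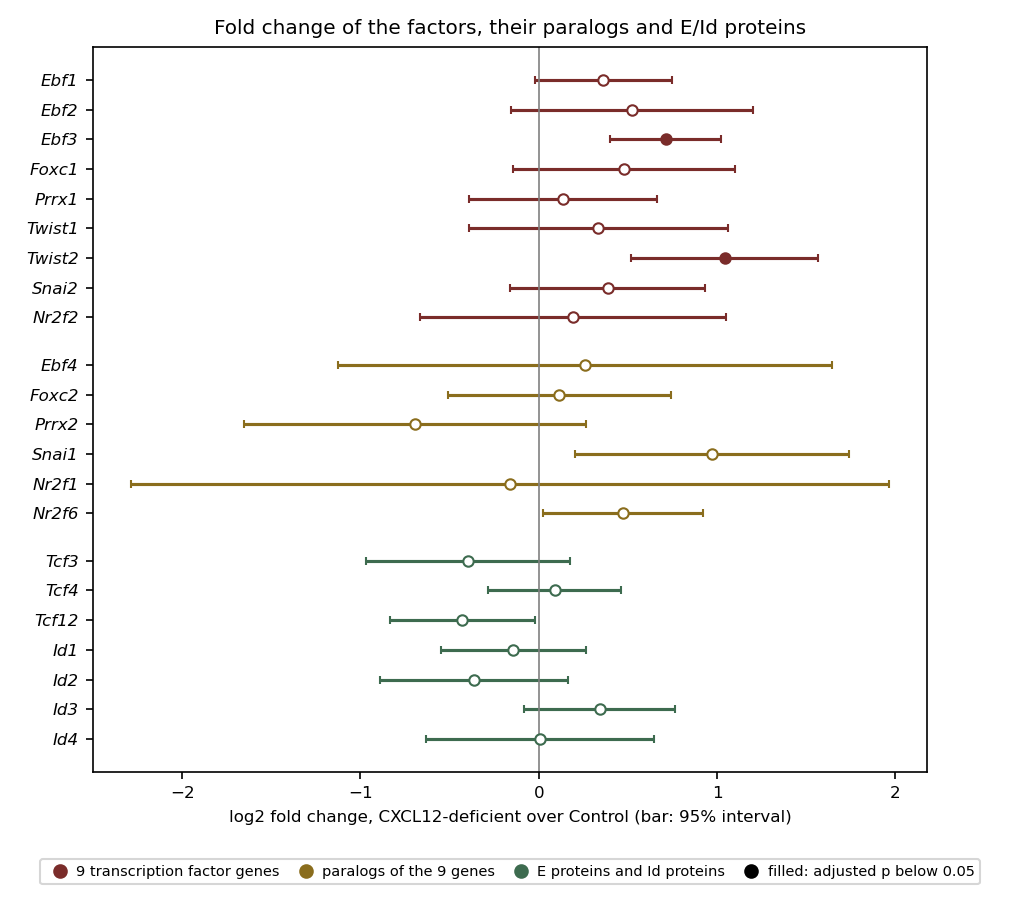
Log2 fold change of CXCL12-deficient over Control libraries (horizontal axis) with its 95% interval for the 9 genes, the 6 paralogs tested and 7 E protein and Id protein genes. Filled points passed an adjusted p of 0.05. Ebf3 at 0.71 and Twist2 at 1.04 are the only filled points, and the interval of Nr2f1, with about 1 CPM, is the widest.

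Per kilobase of annotated exon, the 9 genes had the same order of level in both groups. Snai2 was the highest, at 276 ± 104 CPM per kb in CXCL12-deficient and 211 ± 7.64 CPM per kb in Control libraries (SD, n = 3 each). Foxc1 followed with 80.0 ± 32.8 and 57.4 ± 3.95 CPM per kb in CXCL12-deficient and Control libraries, with a range that overlapped that of Twist1 in CXCL12-deficient libraries. Next came Twist1 (38.4 and 30.4) and Ebf1 (36.2 and 28.2 CPM per kb), whose ranges overlapped in both groups. Ebf3 had 11.8 ± 0.793 CPM per kb in CXCL12-deficient and 7.19 ± 0.0176 in Control libraries. It was above Prrx1 (7.84 ± 0.809) without overlap in CXCL12-deficient libraries, while in Control libraries it lay within the range of Prrx1 (7.12 ± 2.45 CPM per kb). Twist2 had 6.55 and 3.18 CPM per kb, with a range that overlapped that of Prrx1 in CXCL12-deficient libraries and was below it in Control libraries. Ebf2 (3.11 and 2.17 CPM per kb) and Nr2f2 (0.451 and 0.395 CPM per kb) were lowest, apart from their neighbours in both groups.

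No paralog or partner of these factors was called. Of 7 paralogs, 6 could be tested and 0 passed, with 4 positive log2 fold changes and a median of 0.19; Nr2f6, a relative of Nr2f2, averaged 159.6 CPM in CXCL12-deficient and 115 CPM in Control libraries (adjusted p = 0.239, edgeR). Of 7 E protein and Id genes, which encode the dimer partners of Twist factors and the inhibitors of such dimers, 0 passed, 3 were positive and the median was -0.14. The inhibitor gene Id3 was the most abundant, at 2048 CPM in CXCL12-deficient and 1617 CPM in Control libraries (log2 fold change 0.34 ± 0.19, adjusted p = 0.375, edgeR). Tcf3 and Tcf12, E protein genes, had log2 fold changes of -0.40 ± 0.25 and -0.43 ± 0.18 (adjusted p = 0.455 and 0.240, edgeR). Of 29 other mesenchymal transcription factor genes 0 passed, 18 were positive and the median was 0.10. The 2 most abundant were Runx1 (181 and 166 CPM in CXCL12-deficient and Control libraries) and Dlx5 (167 and 131 CPM). The one nearest the threshold, named after its values were seen, was Nfia, at 46.6 and 29.1 CPM (log2 fold change 0.68 ± 0.18, adjusted p = 0.0736, edgeR). At an unadjusted p below 0.05 edgeR had 2 of the paralogs, 1 of the E protein and Id genes and 3 of the other factors. It had 2634 of all 13926 tested genes at that level. DESeq2 called 0, 0 and 1 of these lists' genes, and limma-voom 0 of each. Of all 13926 tested genes, DESeq2 called 989 lower and 302 higher, and limma-voom 540 lower and 84 higher.

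Among genes of CAR cells and of the niche, and among regulators of fat cells, a few passed the test. Of all 13926 tested genes 0.639% rose, 3.94% fell and 52.6% were positive, with a median of 0.028. DESeq2 called 989 of them lower and 302 higher, and limma-voom 540 lower and 84 higher. Of 25 CAR cell and niche genes 4 rose and Cxcl12 fell, 23 were positive and the median was 0.45. DESeq2 called 9 and limma-voom 6 of this list. The genes that rose were Il34, encoding a cytokine that binds the receptor of CSF1, at 217 CPM in CXCL12-deficient and 81.0 CPM in Control libraries, Apoe, encoding the lipid carrier apolipoprotein E, at 5138 and 2082 CPM, the chemokine gene Cxcl14, at 2206 and 1106 CPM, and the adipokine gene Adipoq. Il34 and Apoe kept their calls when scaled to stromal genes and in each refit without a library except that without Control replicate 3. Cxcl14 lost its call when scaled to stromal genes and without CXCL12-deficient replicates 1 and 2 and Control replicates 2 and 3. Adipoq kept its call only without CXCL12-deficient replicate 2. The number of this list that rose was 2, 6 and 4 without CXCL12-deficient replicates 1, 2 and 3. It was 3, 2 and 0 without Control replicates 1, 2 and 3, and 2 when scaled to stromal genes. Over all tested genes the number that rose was 37, 76 and 69, then 47, 6 and 0, in the same refits, and 10 in that scaling. Of 9 adipocyte regulator genes 1 rose, all 9 were positive and the median was 0.33. The one that rose was Nr1h3, which encodes the oxysterol receptor LXR alpha, at 43.7 CPM in CXCL12-deficient and 23.9 CPM in Control libraries (log2 fold change 0.87 ± 0.21, adjusted p = 0.0483, edgeR); DESeq2 called 2 and limma-voom 0 of this list. Nr1h3 lost its call in each of the 6 refits without a library and when scaled to stromal genes. Of 12 osteoblast genes 0 passed by edgeR, DESeq2 or limma-voom, 6 were positive and the median was 0.017. In edgeR 1 had an unadjusted p below 0.05, against 2634 of all 13926 tested genes. In refits, 1 rose without CXCL12-deficient replicate 2 and 2 without Control replicate 1. The 2 most abundant were Spp1, encoding osteopontin, at 7502 CPM in CXCL12-deficient and 7933 CPM in Control libraries, and Sparc, encoding osteonectin, at 4990 and 4471 CPM (adjusted p = 0.933 and 0.821, edgeR).

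**Figure D4:**
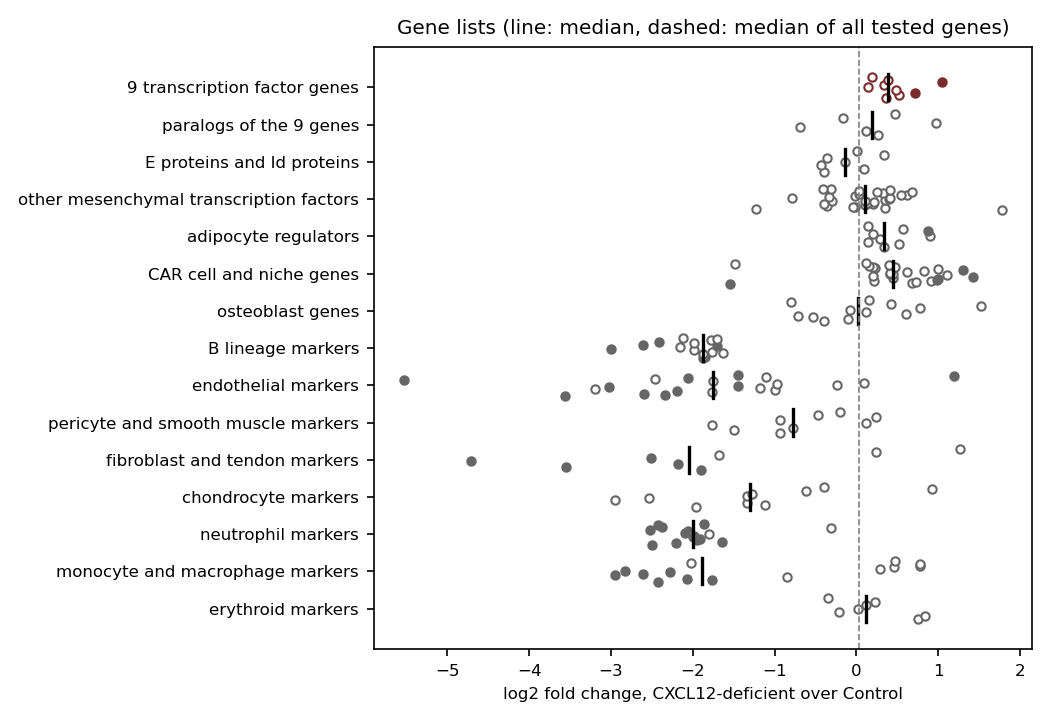
Log2 fold change of CXCL12-deficient over Control libraries (horizontal axis) for each tested gene of 15 lists (rows), with filled points for an adjusted p below 0.05, a black line at each list's median and a dashed line at the median of all tested genes, 0.028. The 9 transcription factor genes, the adipocyte regulators and the niche genes have medians of 0.39, 0.33 and 0.45. The lists of B lineage, endothelial, fibroblast and tendon, neutrophil, and monocyte and macrophage markers have medians of -1.76 or lower. Of the 14 monocyte and macrophage markers tested, 5 are positive, among them the macrophage genes C1qa, C1qb and C1qc.

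Genes whose pattern over the 6 libraries was closest to each factor were found by the root mean square difference of centred log2 CPM, among 10828 genes averaging 5 CPM or more. Gas1, which encodes a hedgehog co-receptor, was closest to Foxc1 at 0.067. Acvr1, a BMP receptor gene, was closest to Snai2 at 0.061. Fgfr1, a fibroblast growth factor receptor gene, was closest to Twist1 at 0.093, and Apbb1 to Prrx1 at 0.043. For Ebf1 it was Tmem198b at 0.038, for Ebf2 Zfp160 at 0.095, for Ebf3 Pxmp3 at 0.079 and for Twist2 Mgmt at 0.13. Only 6 values were compared per gene, no reference distance was computed, and shared regulation was not tested. Among the 9 genes themselves, Ebf1 and Snai2 (0.16), Ebf1 and Nr2f2 (0.19), Foxc1 and Snai2 (0.20) and Ebf3 and Twist2 (0.24) had the smallest differences. The minimum of 5 CPM was not applied to these pairs, so they include Nr2f2, at 66 to 102 counts per library. Genes that vary little between libraries have small differences whatever their pattern, so a small value need not mean a like pattern.

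**Figure D5:**
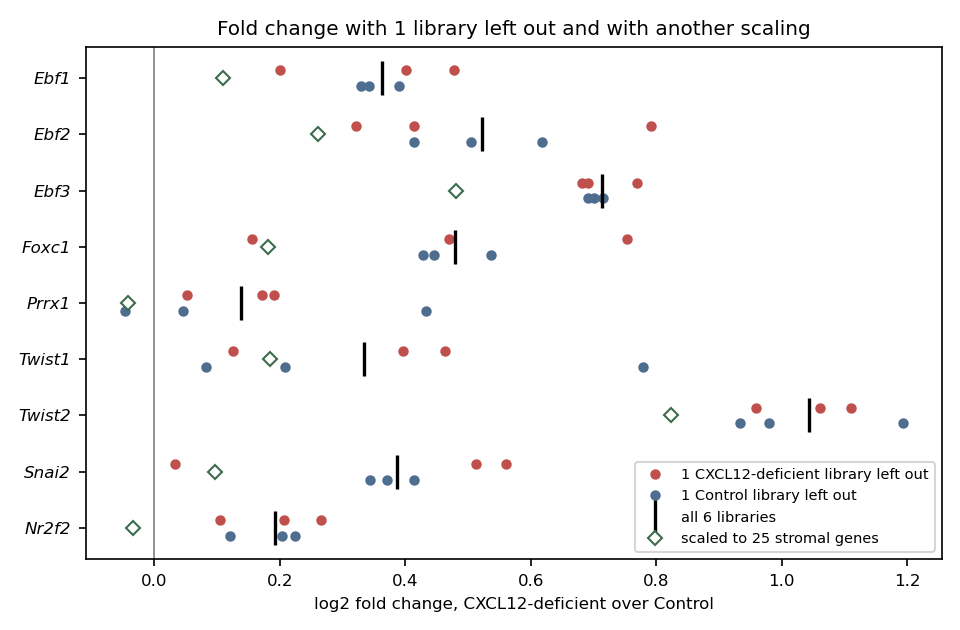
Log2 fold change of CXCL12-deficient over Control libraries (horizontal axis) for each gene with all 6 libraries (black bars), with 1 library left out (red, a CXCL12-deficient library; blue, a Control library) and scaled to 25 stromal genes (diamonds). Ebf3 is between 0.68 and 0.77 with a library left out, Foxc1 and Snai2 are at 0.16 and 0.03 without CXCL12-deficient replicate 3, and Twist1 reaches 0.78 without Control replicate 1.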

How the data were processed

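RNA was sequenced from sorted femoral cells, 3 CXCL12-deficient and 3 Control libraries, grouped by the genotype label. The authors deposited whole-number counts per gene. Per the submitters' processing notes, the build was mm10 and the tools included HTSeq, TopHat2 (2.0.13), DESeq2, Bowtie2 (2.2.1), Cuffdiff, Cufflinks and FastQC; their roles, the annotation and the strand setting are not stated there. The authors also deposited regularized log2 values, used in 1 alternative without 23 entries whose names had become dates. A deposited depth-normalized table was not used.

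The 4 Cxcl12 exon entries were summed. Genes were filtered with filterByExpr (minimum count 10, minimum total count 15) and fitted with edgeR 4.0.16 in R 4.3.3 (TMM, robust quasi-likelihood, no covariate or block), with Benjamini-Hochberg adjustment and a threshold of 0.05. Standard errors and 95% intervals came from the F statistic. Single ratios used exact permutation. Steps were tested on simulated data. CPM per kb used the union of GENCODE M21 exons, which may differ from the authors' annotation. Promoter windows are RefSeq's.

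The 9 genes, the lists and the alternatives were chosen with earlier results of these data known. All 9 genes are named; from other lists the rule took all paralogs, E and Id genes and elsewhere up to 4 called genes with the largest change and the 2 most abundant; for each gene with at least 5 CPM it took the 2 genes of closest pattern, of which the closest is given. Adipoq, Lepr, Nfia, Ramp2, C1qa, C1qb and C1qc were named outside the rule, with their values seen. Alternatives changed the scaling (to 25 stromal genes, to upper quartiles or by DESeq2 size factors), the filter (none beyond 1 read, or 5 CPM in 3 libraries), the tool (DESeq2 1.42.0, limma-voom in limma 3.58.1, edgeR without robust shrinkage), the input (deposited log2 values, separate Cxcl12 exons), the threshold (0.01) and the libraries (each dropped in turn).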

Additional observations from a re-analysis of the deposited data

How the results depend on the processing

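The rise of Ebf3 and Twist2 was called in 10 and 9 of 16 other fits, with adjusted p from 0.000319 to 0.509 and from 0.0024 to 0.271. Both calls were kept under DESeq2 size factors, upper quartile factors, both other filters, no robust shrinkage, DESeq2, limma-voom, the deposited log2 values and separate Cxcl12 exons. Of the 9 genes, 0 were called when scaled to stromal genes or at an adjusted p below 0.01, and between 0 and 1 with 1 library left out. The stromal scaling shifted the median log2 fold change of all genes by -0.23. Relative to that median, Ebf3 and Twist2 were at 0.69 and 1.03, and at 0.69 and 1.02 under TMM. Subtracting the median largely undoes a change of scaling, so this closeness was set by the arithmetic and is no check of the calls. In that scaling Prrx1 and Nr2f2 had log2 fold changes of -0.042 and -0.035, and with 1 library left out Prrx1 ran from -0.048 (without Control replicate 3) to 0.43 (without Control replicate 1). The other 7 genes were called in none of their alternatives.

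Over all genes, 548 fell and 89 rose. DESeq2 called 989 lower and 302 higher, the stromal scaling 587 lower and 10 higher, and an adjusted p below 0.01 left 79 lower and 1 higher. With 1 library left out, between 74 and 530 were lower and between 0 and 76 higher; the fewest of each were called without Control replicate 3, with 1690 genes at an unadjusted p below 0.05. Causes were not tested. No paired analysis was possible because the labels carry no replicate numbers shared between groups. Nr2f2 was left out by the filter of 5 CPM, and its 66 to 102 counts per library limit its precision.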
